A study of Mus musculus with 4 samples.

Results

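The genes described here encode the sarcomere, the calcium handling machinery and the energy enzymes of the skeletal muscle fibre. They were chosen by name as 43 genes, of which 31 were listed in the table of 11603 genes and 12 were not. The genes not listed, which were not analysed here, were Myh2, Myh4, Myh7, Myh8, Myl2, Mybpc2, Myom1, Myoz1, Tnnc2, Tcap, Trdn and Cacna1s. The 31 measured members comprised 13 of 18 adult fast-fibre genes, 6 of 8 slow-fibre genes, 3 of 4 developmental genes and 9 of 13 genes shared by fibre types. RNA was sequenced from hindlimb muscle stem cells of male C57BL/6 mice, 4 to 5 months old, sorted as VCAM1+ and CD31-, CD45- and Sca1-. The groups were 2 libraries from mice with a conditional Hairless knockout (knockout 1 and 2) and 2 libraries from control mice (control 1 and 2). The sources used here do not name the Cre line, an inducing agent or the alleles carried by the controls. Whether each library is a different animal is not labelled, and p-values therefore cover the spread between these libraries, which may be technical.

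Muscle fibres contract when calcium released from the sarcoplasmic reticulum binds troponin on the thin actin filament and lets the myosin heads of the thick filament pull on it. Adult fast fibres, slow fibres and developing fibres each use their own isoforms of myosin, troponin and calcium pump, so the isoform often tells which kind of fibre a transcript belongs to. Quiescent muscle stem cells lie on the fibre beneath its basal lamina and are mononucleate. They are not known for making sarcomeres until they differentiate and fuse, and desmin is an exception that is already present in myoblasts.

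Values are RPKM, reads scaled by the authors by exon length and a size set for each library, so levels of different genes can be compared. The libraries held 21757211 to 34101213 reads on the listed genes. The size that the authors' values imply was 75.7% and 75.5% of those reads in knockout, against 85.9% and 92.4% in control. Dividing by a smaller share raises RPKM in knockout relative to control. Hr, which encodes the Hairless corepressor, had 7.15 and 7.90 RPKM in the libraries labelled knockout, against 9.28 and 8.94 RPKM in control, with a limma adjusted p of 0.431. This sum over all exons does not show whether a part of the gene was deleted, and the direction of every difference rests on the sample labels. Of the 12 muscle stem cell markers all were listed, and Pax7, the transcription factor that defines these cells, had 9.03 and 13.1 RPKM in knockout, against 8.23 and 12.9 RPKM in control.

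Across the fibre genes the 4 libraries did not divide by genotype alone. Control 2 stood far above the other 3 libraries for a set of adult fast-fibre genes (Mylpf, Tnnt3, Tnni2, Ckm, Pvalb, Pgam2 and Myl1), while control 1 was at most 1.45-fold above the knockout mean for all of these but Myl1. Both controls still lay above both knockouts for each gene of that set but Tnnt3. The same held for developmental Myh3 and Tnnt2 and for the giant protein genes Ttn and Neb, at levels under 2 RPKM. For Myh3, Tnnt2, Ttn and Neb control 2 was also the higher control, at 2.35 to 2.87 times control 1. Control 1 was 1.49-fold above the knockout mean for Neb, and 3.88- to 4.82-fold above it for Myh3, Tnnt2 and Ttn. Desmin, Tpm3 and Tnnt1 were higher in both knockout libraries. In bulk RNA, fewer cells of a type and less RNA per cell cannot be told apart.

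The fit over all genes was limma on log2(RPKM + 0.5), in which fold changes of low genes are understated. After Benjamini-Hochberg adjustment over 11603 genes, limma called 0 of the 31 members, against a background of 0.00862% of all genes in either direction. At an unadjusted p under 0.05 it counted 8 members lower (background 7.69%) and 3 higher (background 10.3%), and limma-voom on the recovered reads called 0 (background 0.0948%). The authors' deposited table, with a q-value under 0.05, gave 16 members as lower in knockout (background 4.26%) and 1 as higher (background 3.59%), or 7.84% of all genes in either direction, with the direction taken from the group means. The groups did not overlap for 21 members (background 51.2%): 18 had both knockouts below both controls (background 26.2%) and 3 had them above (background 25.0%). The median log2 fold change was -0.70 over the members and -0.01 over all genes. Members had to be listed to be measured, and one that is high in a single library can be listed for that reason.

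**Figure D1:**
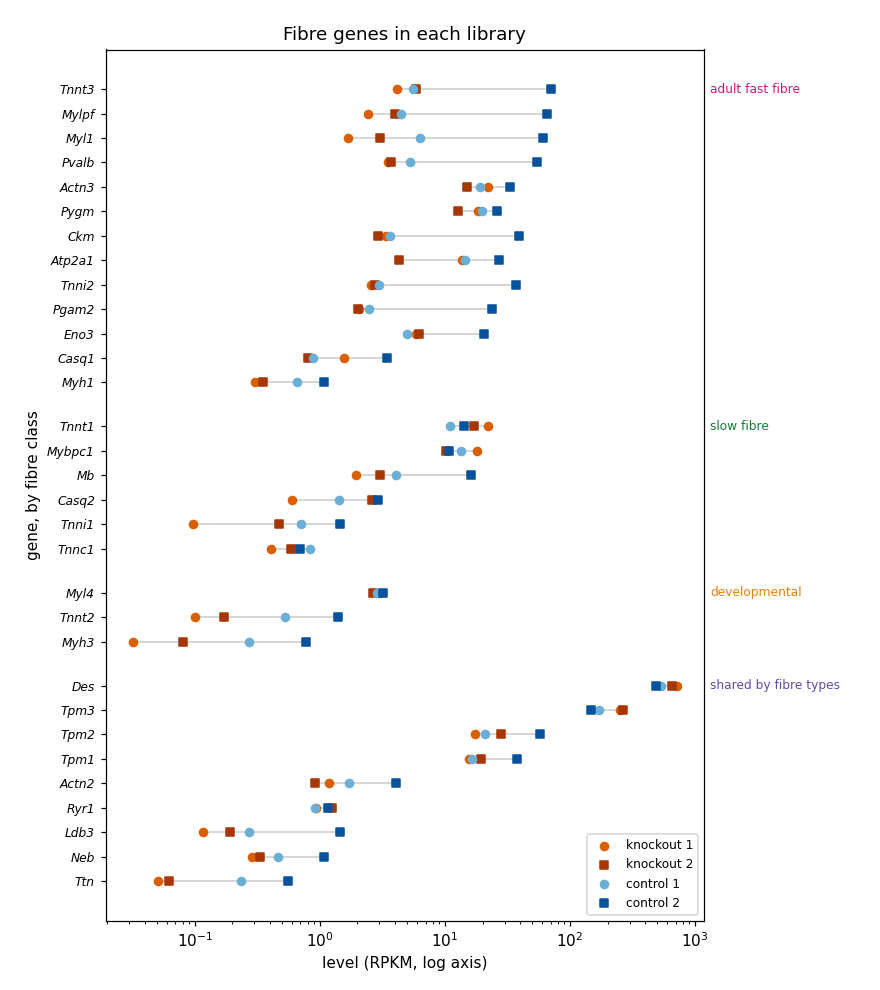
Level of each of the 31 measured genes in each of the 4 libraries, in RPKM on a log axis, grouped by fibre class. The grey line spans the 4 values. Control 2 (dark blue squares) lies far to the right for adult fast-fibre genes such as Tnnt3 (70.1 RPKM) and Mylpf (65.8 RPKM), while Des and Tpm3 lie highest in knockout.

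The promoters of 4 members are shown because they stand for the different patterns: Mylpf and Ckm, high in control 2; Myh3, higher in both controls; and Des, higher in knockout. Each is the sense strand, from 250 bases before to 50 bases after a gene start, from RefSeq on GRCm38.p6. Capitals mark matches to the E-box CANNTG, the sequence bound by myogenic basic helix-loop-helix factors. The windows are chr7:127211358-127211657 (plus strand) for Mylpf, chr7:19410844-19411143 (plus) for Ckm, chr11:67078050-67078349 (plus) for Myh3 and chr1:75360042-75360341 (plus) for Des.
Mylpf: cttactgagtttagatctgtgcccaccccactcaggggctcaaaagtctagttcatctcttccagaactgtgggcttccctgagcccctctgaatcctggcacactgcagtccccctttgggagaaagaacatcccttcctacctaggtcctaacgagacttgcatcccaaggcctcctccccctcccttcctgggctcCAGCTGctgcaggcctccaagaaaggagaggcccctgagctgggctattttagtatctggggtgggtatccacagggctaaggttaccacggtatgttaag
Ckm: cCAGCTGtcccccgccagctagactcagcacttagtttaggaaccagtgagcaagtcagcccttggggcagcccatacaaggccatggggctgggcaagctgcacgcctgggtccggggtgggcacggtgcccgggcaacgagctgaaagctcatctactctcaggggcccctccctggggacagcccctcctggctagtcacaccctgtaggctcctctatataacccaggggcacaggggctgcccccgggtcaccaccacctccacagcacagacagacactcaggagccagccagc
Myh3: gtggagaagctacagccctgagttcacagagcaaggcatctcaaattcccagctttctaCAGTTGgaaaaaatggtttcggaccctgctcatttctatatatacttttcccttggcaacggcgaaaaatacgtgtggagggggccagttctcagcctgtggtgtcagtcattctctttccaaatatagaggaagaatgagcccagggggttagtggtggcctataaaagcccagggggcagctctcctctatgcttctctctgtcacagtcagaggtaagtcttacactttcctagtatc
Des: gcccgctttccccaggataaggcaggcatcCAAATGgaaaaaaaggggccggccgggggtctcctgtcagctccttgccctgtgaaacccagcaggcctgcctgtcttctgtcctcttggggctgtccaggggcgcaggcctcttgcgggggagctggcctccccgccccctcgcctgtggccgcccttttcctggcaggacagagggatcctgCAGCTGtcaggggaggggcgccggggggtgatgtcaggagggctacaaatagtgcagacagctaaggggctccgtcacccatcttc

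Of the 31 measured members, 27 had at least 1 RefSeq promoter, 34 in all. CANNTG, which reads the same on both strands, was in 28 of the 34 (82.4%) and in 72.3% of all 32851 promoters. Its palindromic form CAGCTG, a subset of the CANNTG matches, was in 17 of 34 and in 16.3% of all promoters. The windows of Mylpf and Ckm each held a single CANNTG match, which was CAGCTG. Des held CAGCTG and CAAATG, and the single match of Myh3 was CAGTTG. The MEF2 motif, searched on both strands, was in 5 of 34 (14.7%) and in 3.19% of all promoters, and it was in none of the 4 windows shown. These matches describe the letters and were not tested.

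Thick filament genes comprised 6 measured members, the myosin motors and light chains that generate force and a protein that binds them. Mylpf, the fast regulatory light chain (Entrez gene 17907, chr7:127211608-127214298, mm10), had 2.41 and 3.99 RPKM in knockout, against 4.48 and 65.8 RPKM in control. Control 2 was 14.7-fold above control 1, and on the log2(RPKM + 0.5) scale no other of the 11603 genes had so large a difference in that direction. Both knockouts were below control 1, but only narrowly for knockout 2. The log2 fold change was -2.33 (standard error 1.13, limma adjusted p 0.348), and it was -0.46 without control 2.

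Myl1, the fast essential light chain (Entrez gene 17901, chr1:66924295-66945404), had 1.68 and 3.05 RPKM in knockout, against 6.38 and 60.5 RPKM in control. Control 2 was again far above the rest, but control 1 was also 2.70-fold above the knockout mean. Its log2 fold change of -2.88 was the lowest of the members (standard error 0.97, limma adjusted p 0.228), and it was -1.31 without control 2. In the authors' deposited table its q-value was 1.32e-06.

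Myosin heavy chains were low in every library. Myh1, the adult fast IIx heavy chain, had 0.305 and 0.355 RPKM in knockout, against 0.658 and 1.07 RPKM in control (log2 fold change -0.70, standard error 0.18, limma adjusted p 0.185). Myh3, the embryonic heavy chain, had 0.0320 and 0.0804 RPKM in knockout, against 0.271 and 0.775 RPKM in control. These came from 5 and 8 reads in knockout, against 38 and 98 reads in control, so the knockout values carry large counting error. The groups did not overlap for either gene, and the Myh3 mean was 9.31-fold lower in knockout. Because the pseudocount outweighs such levels, its limma log2 fold change was -0.84 (standard error 0.24, adjusted p 0.199), while limma-voom on reads gave -3.13. The heavy chain genes of this cluster are close copies of each other, so how the authors' counting split reads between them is uncertain.

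Myl4 and Mybpc1 showed no separation of the groups. Myl4, the light chain of the embryo and of the atrium, had 3.05 and 2.67 RPKM in knockout, against 2.87 and 3.22 RPKM in control. Its log2 fold change of -0.08 (standard error 0.17) had a limma adjusted p of 0.839, and among the developmental members it was the one whose groups overlapped. Mybpc1, the slow form of myosin-binding protein C, had 17.9 and 10.2 RPKM in knockout, against 13.4 and 10.8 RPKM in control, with a log2 fold change of 0.17 that changed sign under other settings.

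Thin filament genes comprised 10 measured members, which are the troponin subunits that sense calcium, the tropomyosins that cover the myosin sites and nebulin, which spans the filament. The fast troponins followed Mylpf. Tnnt3, fast troponin T (Entrez gene 21957, chr7:142498836-142516009), had 4.18 and 5.86 RPKM in knockout, against 5.58 and 70.1 RPKM in control. Tnni2, fast troponin I (Entrez gene 21953, chr7:142441808-142444410), had 2.56 and 2.77 RPKM in knockout, against 2.97 and 36.9 RPKM in control. For both genes control 1 lay within 1 RPKM of knockout 2. Their log2 fold changes were -1.93 and -1.85, with limma adjusted p values of 0.398 and 0.399, and -0.16 and -0.13 without control 2.

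The slow troponins behaved in different ways. Tnni1, slow troponin I, which developing fibres also make, had 0.0968 and 0.473 RPKM in knockout, against 0.707 and 1.44 RPKM in control. Both knockouts lay below both controls, from 9 and 28 reads in knockout and 59 and 108 reads in control. The log2 fold change was -1.004 (standard error 0.32, limma adjusted p 0.214), and -0.66 without control 2. Tnnt1, slow troponin T, went the other way, with 22.2 and 17.0 RPKM in knockout, against 11.1 and 14.2 RPKM in control. Its log2 fold change was 0.61 (standard error 0.21, limma adjusted p 0.228), and both knockouts lay above both controls. Tnnc1, slow and cardiac troponin C, stayed under 1 RPKM, with 0.409 and 0.585 RPKM in knockout, against 0.829 and 0.690 RPKM in control.

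Tnnt2, the troponin T of the embryo and the heart (Entrez gene 21956, chr1:135836354-135852260), had 0.0999 and 0.173 RPKM in knockout, against 0.528 and 1.39 RPKM in control. These were 20 and 22 reads in knockout, against 95 and 225 reads in control. The groups were apart, with control 1 3.88-fold above the knockout mean, unlike the fast troponin T Tnnt3, whose control 1 value lay between the knockout values. The log2 fold change was -1.13 (standard error 0.29, limma adjusted p 0.183), and it was -0.70 without control 2. The authors' deposited q-value was 1.16e-08.

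The tropomyosins divided. Tpm3, which serves slow fibres and non-muscle cells, was among the most abundant members, with 250 and 264 RPKM in knockout, against 171 and 146 RPKM in control. The means were 257 ± 10.3 RPKM in knockout and 159 ± 17.3 RPKM in control (SD, n = 2 each), and the log2 fold change was 0.70 (standard error 0.15). The limma adjusted p was 0.163, the lowest of the members, and the authors' deposited q-value was 0.00558, the one call in the higher direction. Tpm1 had 15.5 and 19.3 RPKM in knockout, against 16.6 and 38.0 RPKM in control, and Tpm2 had 17.3 and 28.02 RPKM in knockout, against 21.1 and 57.5 RPKM in control. For Tpm1 and Tpm2 control 1 lay between the knockout values, and the log2 fold changes of -0.53 and -0.65 became 0.06 for each without control 2. All 3 genes make muscle and non-muscle isoforms that these gene totals do not separate, and all 3 were classed as shared by fibre types.

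Genes of the Z-disc and of the elastic and intermediate filaments comprised 5 measured members. Des, encoding desmin (Entrez gene 13346, chr1:75360329-75368579), was the most abundant member, with 715 and 655 RPKM in knockout, against 538 and 489 RPKM in control. The means were 685 ± 42.6 RPKM in knockout and 513 ± 35.0 RPKM in control (SD, n = 2 each), and both knockouts were above both controls. The log2 fold change of 0.42 (standard error 0.16) had a limma adjusted p of 0.254. Scaling the libraries by the reads listed, which shifted the median of all genes by -0.19, left log2 fold changes of 0.18 for Des, 0.38 for Tnnt1 and 0.46 for Tpm3.

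Ttn and Neb, the largest members, were low. Ttn, which encodes the spring titin (Entrez gene 22138, chr2:76703980-76982547), had 0.0504 and 0.0620 RPKM in knockout, against 0.233 and 0.555 RPKM in control. Its long exons still collected 152 and 119 reads in knockout, against 631 and 1354 reads in control. Both knockouts lay below both controls. The mean was 7.01-fold lower in knockout and control 1 alone was 4.14-fold above the knockout mean. The limma log2 fold change was -0.66 (standard error 0.19, adjusted p 0.195), and -0.40 without control 2, while limma-voom on reads gave -2.69 with an adjusted p of 0.0994. Neb, the thin filament protein nebulin, had 0.285 and 0.330 RPKM in knockout, against 0.460 and 1.08 RPKM in control (log2 fold change -0.61, limma adjusted p 0.280, and -0.25 without control 2).

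The alpha-actinins crosslink actin at the Z-disc. Actn3, found in fast fibres, had 22.1 and 15.0 RPKM in knockout, against 19.1 and 33.0 RPKM in control, so the groups overlapped. Actn2, found in all fibres, had 1.17 and 0.923 RPKM in knockout, against 1.72 and 4.05 RPKM in control, with a log2 fold change of -1.04 (standard error 0.35, limma adjusted p 0.228) and -0.52 without control 2. Ldb3, a Z-disc adaptor, had 0.116 and 0.192 RPKM in knockout, against 0.272 and 1.44 RPKM in control (log2 fold change -0.91, limma adjusted p 0.322, and -0.24 without control 2). Both Actn2 and Ldb3 were lower in both knockouts, and control 2 was the highest library for each.

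Calcium handling genes comprised 5 measured members. Pvalb, the calcium buffer parvalbumin of fast fibres (Entrez gene 19293, chr15:78191114-78206400), had 3.53 and 3.68 RPKM in knockout, against 5.22 and 54.4 RPKM in control. Control 2 was 10.4-fold above control 1, and the log2 fold change of -2.11 (standard error 0.98, limma adjusted p 0.328) became -0.48 without control 2. Atp2a1, the fast-fibre calcium pump SERCA1, had 13.7 and 4.28 RPKM in knockout, against 14.5 and 27.0 RPKM in control. Here knockout 2 was the low library, and knockout 1 lay near control 1. The log2 fold change was -1.30, with a limma adjusted p of 0.297. It was -2.09 without knockout 1 and -0.52 without knockout 2, and -1.74 without control 1 and -0.86 without control 2. Atp2a1 shares 763 of its 3483 exon bases with Rabep2 on the other strand, and the sources used here do not say whether the counting used strand. Mb likewise shares 64 of 1252 exon bases with Apol6 on the other strand.

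The release channel and the reticulum buffers differed among themselves. Ryr1, the calcium release channel, had 0.935 and 1.26 RPKM in knockout, against 0.923 and 1.17 RPKM in control, from 317 to 374 reads in each library. Its log2 fold change was 0.04 (standard error 0.18, limma adjusted p 0.927). Casq1, the fast calsequestrin, had 1.57 and 0.811 RPKM in knockout, against 0.884 and 3.46 RPKM in control, so control 2 was 3.92-fold above control 1, which lay between the knockouts as for Tnnt3. The Casq1 log2 fold change of -0.51 became 0.25 without control 2. Casq2, the slow and cardiac form, had 0.595 and 2.60 RPKM in knockout, against 1.42 and 2.92 RPKM in control, with the lower value of each group in library 1.

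The 5 energy metabolism genes were all measured. Ckm, the muscle creatine kinase that rebuilds ATP (Entrez gene 12715, chr7:19411094-19421583), had 3.39 and 2.93 RPKM in knockout, against 3.63 and 39.4 RPKM in control. Pgam2, the muscle phosphoglycerate mutase of glycolysis, had 2.07 and 2.03 RPKM in knockout, against 2.46 and 23.9 RPKM in control. Control 1 was 1.15-fold above the knockout mean for Ckm and 1.20-fold above it for Pgam2, whereas control 2 was more than 9-fold above control 1 for both. Their log2 fold changes of -1.81 and -1.74 had limma adjusted p values of 0.391 and 0.380, and became -0.18 and -0.22 without control 2.

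Eno3, the muscle enolase, had 5.90 and 6.20 RPKM in knockout, against 4.96 and 20.5 RPKM in control, so control 1 was the lowest library and control 2 the highest. Its log2 fold change of -0.71 became 0.26 without control 2. Mb, myoglobin of oxidative fibres, had 1.95 and 3.01 RPKM in knockout, against 4.10 and 16.2 RPKM in control, with both controls above both knockouts (log2 fold change -1.58, standard error 0.60, limma adjusted p 0.257). Without control 2 the log2 fold change of Mb was -0.65. Pygm, the muscle glycogen phosphorylase, had 18.5 and 12.8 RPKM in knockout, against 19.9 and 25.9 RPKM in control, with control 1 close to knockout 1.

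Separated by fibre class, adult fast-fibre genes depended most on which control was used. Their 13 measured members summed to 81.9 and 63.8 RPKM in knockout, against 90.7 and 462 RPKM in control. By this sum control 1 was near the knockouts and control 2 stood alone. Gene by gene, control 1 was above both knockouts for 9 of the 13, against 4200 of all 11603 genes. Without control 2 the log2 fold change was below 0 for 11 of the 13, against 5875 of all 11603 genes. The class median log2 fold change was -1.74 with both controls, and -0.22 without control 2. Over all genes the median was -0.01 with both controls, and -0.003 without control 2.

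The 3 measured developmental members had a median log2 fold change, that of Myh3, of -0.84 with both controls and -0.47 without control 2. This median moved less than the adult fast one, but the pseudocount compresses changes at such low levels. In RPKM, control 2 was 2.87 times control 1 for Myh3, 2.63 times for Tnnt2 and 1.12 times for Myl4. On the scale of single genes Myh3 and Tnnt2 were lower in both knockouts than in either control. The 6 slow-fibre members had medians of -0.41 and -0.24, and the 9 shared members had medians of -0.61 and 0.06. With so few members per class, and RPKM values under 2 for Myh3 and Tnnt2, these medians are descriptions, and a difference between classes was not tested.

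**Figure D2:**
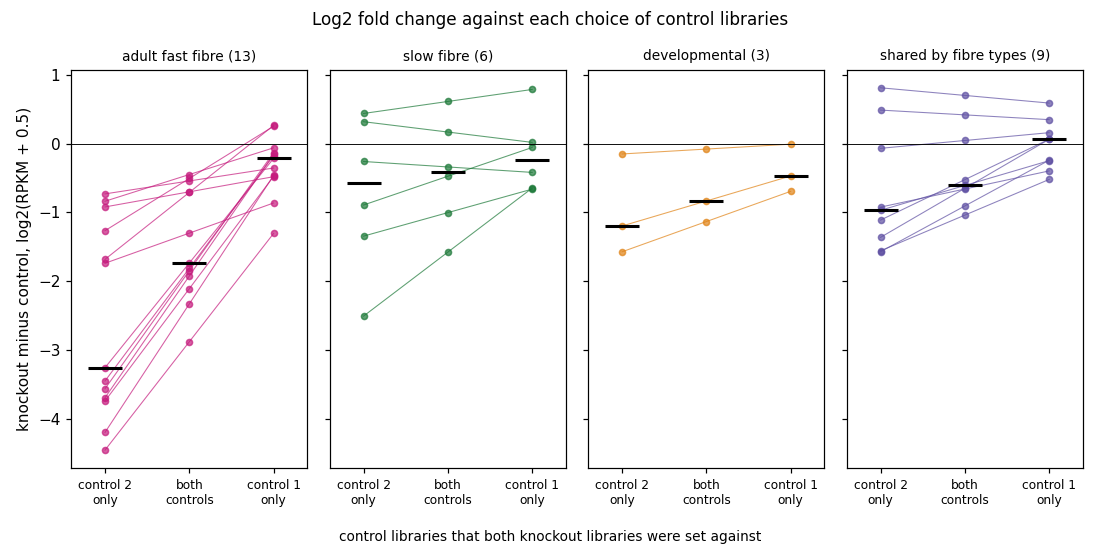
Log2 fold change of each gene, knockout minus control on the log2(RPKM + 0.5) scale, when both knockout libraries are set against control 2 alone, both controls or control 1 alone. Each line is a gene, each panel a fibre class with its number of measured genes, and the black bar the median, which for adult fast-fibre genes is -3.26, -1.74 and -0.22 in that order.

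The distance between the controls was large for these genes on the scale of the whole table. Control 2 was above control 1 for 27 of the 31 members (background 50.6%). It was at least 2 times control 1 for 20 of the 31 members (background 2.43%) and at least 10 times for 5 of them (background 0.267%). By direction alone, knockout 2 was above knockout 1 for 20 of the 31 members (background 52.2%). The highest ratios of knockout 2 to knockout 1 were 4.89 for Tnni1 and 4.38 for Casq2, and the lowest was 0.312 for Atp2a1. The 7 listed genes with the highest ratio of control 2 to control 1 on the log2(RPKM + 0.5) scale were all members: Mylpf, Tnnt3, Tnni2, Ckm, Pvalb, Myl1 and Pgam2. Of the 20 highest, 12 were members, 3 were on the other muscle lists (Ankrd2, Hspb7 and Acta1) and 5 were on no list.

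The ratio also went with summed exon length inside the adult fast class, but not across the other members. The 7 genes just named have summed exon lengths of 840 to 2074 bases and ratios from 9.48 to 14.7. The longer adult fast members had lower ratios, which were 1.73 for Actn3 (2894 bases), 1.31 for Pygm (3218 bases), 1.86 for Atp2a1 (3483 bases) and 1.63 for Myh1 (6353 bases). Eno3 and Casq1, at 1739 and 1951 bases, had ratios of 4.14 and 3.92. The order of levels in this class also differed between the controls. In control 1 Pygm (19.9 RPKM) and Actn3 (19.1 RPKM) lay above Tnnt3 (5.58 RPKM) and Ckm (3.63 RPKM). In control 2 Tnnt3 (70.1 RPKM) and Ckm (39.4 RPKM) lay above Actn3 (33.0 RPKM) and Pygm (25.9 RPKM). Outside the class, lengths and ratios were mixed. Among short genes Mb (1252 bases) had a ratio of 3.95 and Tnnc1 (1041 bases) 0.833. Among long genes Ldb3 (6016 bases) had 5.29, Ttn (116825 bases) 2.38 and Ryr1 (15371 bases) 1.26. The part of length in these ratios was not tested.

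**Figure D3:**
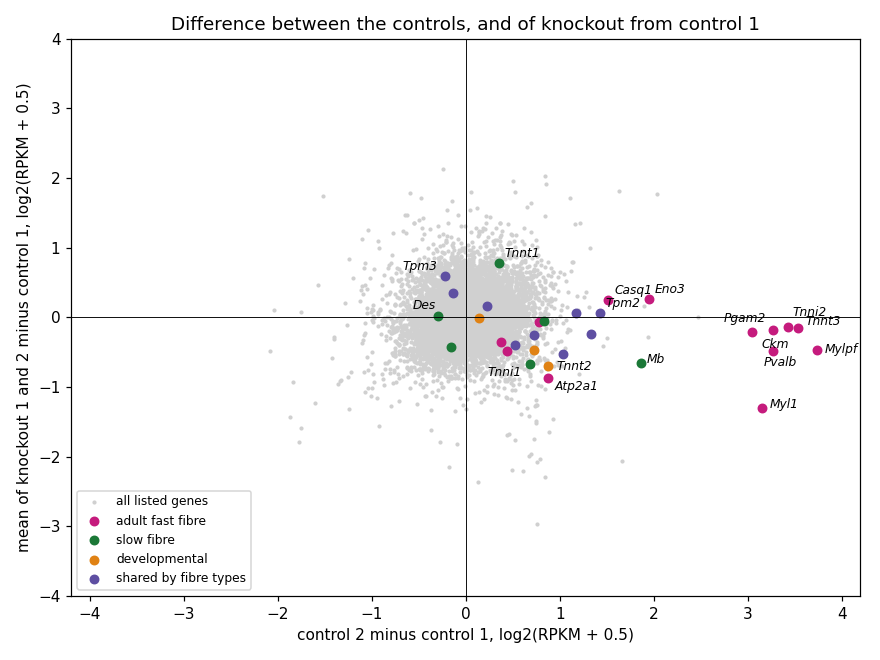
Each point is a gene, with control 2 minus control 1 on the horizontal axis and the knockout mean minus control 1 on the vertical axis, both in log2(RPKM + 0.5). Grey points are all 11603 listed genes. Adult fast-fibre genes such as Mylpf and Ckm lie far to the right near 0 on the vertical axis (-0.46 and -0.18), while Myl1 lies at -1.31.

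Other fibre genes came from lists chosen by function. Of 46 other sarcomere and Z-disc genes 26 were listed, with 0 limma calls. The q-value of the authors' deposited table gave 13 lower (background 4.26%) and 1 higher (background 3.59%). The most abundant was Cryab, a small heat shock protein of the Z-disc, with 1377 and 1169 RPKM in knockout, against 1315 and 725 RPKM in control. Acta1, skeletal alpha actin, had 36.5 and 31.9 RPKM in knockout, against 144 and 455 RPKM in control, so both controls were above both knockouts and control 2 was the higher of them. The actin gene Actc1, chosen after its values were seen, had 5.60 and 9.22 RPKM in knockout, against 59.9 and 102 RPKM in control. Its log2 fold change of -3.35 (limma adjusted p 0.126) was the lowest of all 11603 genes, and it was -2.97 without control 2. The median log2 fold change of the list was -0.38, and -0.26 without control 2. In either case 18 of the 26 genes were below 0.

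Of 22 other excitation-contraction and calcium genes 17 were listed, with 0 limma calls. The authors' deposited table had 4 lower (background 4.26%) and 1 higher (background 3.59%). The most abundant were Atp2a2, the slow-fibre and housekeeping calcium pump SERCA2 (130 and 85.0 RPKM in knockout, against 127 and 107 RPKM in control), and Fkbp1a, which binds the release channel (91.0 and 88.6 RPKM in knockout, against 104 and 99.98 RPKM in control). Neither showed a difference past the test, and the list median was -0.15. Chosen after its values were seen, Sln, encoding the pump inhibitor sarcolipin, was higher in both knockouts, with 26.2 and 14.2 RPKM in knockout, against 5.19 and 5.40 RPKM in control. Its log2 fold change was 1.77, with a limma adjusted p of 0.135.

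Of 23 other fibre energy metabolism genes 15 were listed, with 0 limma calls. The authors' deposited table had 1 lower (background 4.26%) and 1 higher (background 3.59%). The glycolytic genes Aldoa (537 and 534 RPKM in knockout, against 406 and 428 RPKM in control) and Ldha (465 and 483 RPKM in knockout, against 335 and 370 RPKM in control) were the most abundant. Both were higher in both knockouts (background 25%), with limma adjusted p values of 0.275 for Aldoa and 0.230 for Ldha. Summed over all listed genes, RPKM was also higher in knockout (516803 and 531029) than in control (422746 and 390625). The muscle isoform genes Ckm, Pgam2 and Eno3 were not higher in both knockouts, and neither Aldoa nor Ldha stood high in control 2. The list median was 0.15.

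Early differentiation genes precede the fibre genes in the myogenic program. Myog, the factor that starts terminal differentiation, was also chosen after its values were seen. It had 23.7 and 28.1 RPKM in knockout, against 111 and 188 RPKM in control, and its log2 fold change of -2.46 (limma adjusted p 0.126) was -2.08 without control 2. Of the 10 genes of this list 8 were listed, with 0 limma calls. The authors' deposited table had 3 lower (background 4.26%) and 1 higher (background 3.59%). The 2 with the highest mean were Cdkn1a, encoding p21 (1171 and 1689 RPKM in knockout, against 950 and 1144 RPKM in control), and Myod1 (1711 and 1413 RPKM in knockout, against 977 and 694 RPKM in control).

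No marker list of another cell type had control 2 as far above control 1 as the adult fast-fibre genes. The 10 endothelial markers, all listed, summed to 116 and 168 RPKM in knockout, against 122 and 151 RPKM in control. The 5 listed of 10 blood cell markers summed to 12.0 and 18.4 RPKM in knockout, against 16.5 and 16.2 RPKM in control. Most of this sum was Lyz2 (4.62 and 13.0 RPKM in knockout, against 11.1 and 10.6 RPKM in control) and Cd68 (5.15 to 7.18 RPKM). Ptprc, which encodes CD45, was at or below 0.0399 RPKM everywhere. Genes of the other antigens sorted against were detected. Pecam1 (CD31) had 5.51 to 11.9 RPKM, and Ly6a (Sca1) had 77.4 and 80.7 RPKM in knockout, against 47.9 and 49.5 RPKM in control. The 2 listed of 5 erythroid markers were highest in knockout 2, with 8.46 and 125 RPKM in knockout, against 36.0 and 27.8 RPKM in control. The 3 listed of 6 Schwann cell markers summed to 7.79 and 18.6 RPKM in knockout, against 16.1 and 18.1 RPKM in control.

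Tenocyte markers, 5 of 5 listed, summed to 36.3 and 76.1 RPKM in knockout, against 88.1 and 48.4 RPKM in control, and control 2 was above control 1 for 2 of them. The 7 listed of 9 fibro-adipogenic markers summed to 1499 and 1200 RPKM in knockout, against 1632 and 1466 RPKM in control. Smooth muscle and pericyte markers, 8 of 8 listed, summed to 281 and 377 RPKM in knockout, against 503 and 713 RPKM in control. Most of this sum came from Acta2 and Tagln, and 5 of the 8 genes had a log2 fold change above 0, with a list median of 0.14. The smooth muscle actin gene Acta2 had 148 and 205 RPKM in knockout, against 321 and 474 RPKM in control, and Tagln had 114 and 133 RPKM in knockout, against 158 and 215 RPKM in control. Col1a1, a collagen gene among the fibro-adipogenic markers, was the 1 gene of the whole table that passed limma, with 12.5 and 12.6 RPKM in knockout, against 67.0 and 73.4 RPKM in control (log2 fold change -2.43, adjusted p 0.0385), and it passed in none of the 4 fits that each leave out 1 library. The 12 muscle stem cell markers summed to 4138 and 4381 RPKM in knockout, against 3222 and 2670 RPKM in control. Most of this sum was Sdc4, with 3031 and 3260 RPKM in knockout, against 2121 and 1582 RPKM in control, and the log2 fold change was below 0 for 7 of the 12 genes (median -0.01). The part of any of these cell types in the results for the fibre genes was not tested.

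**Figure D4:**
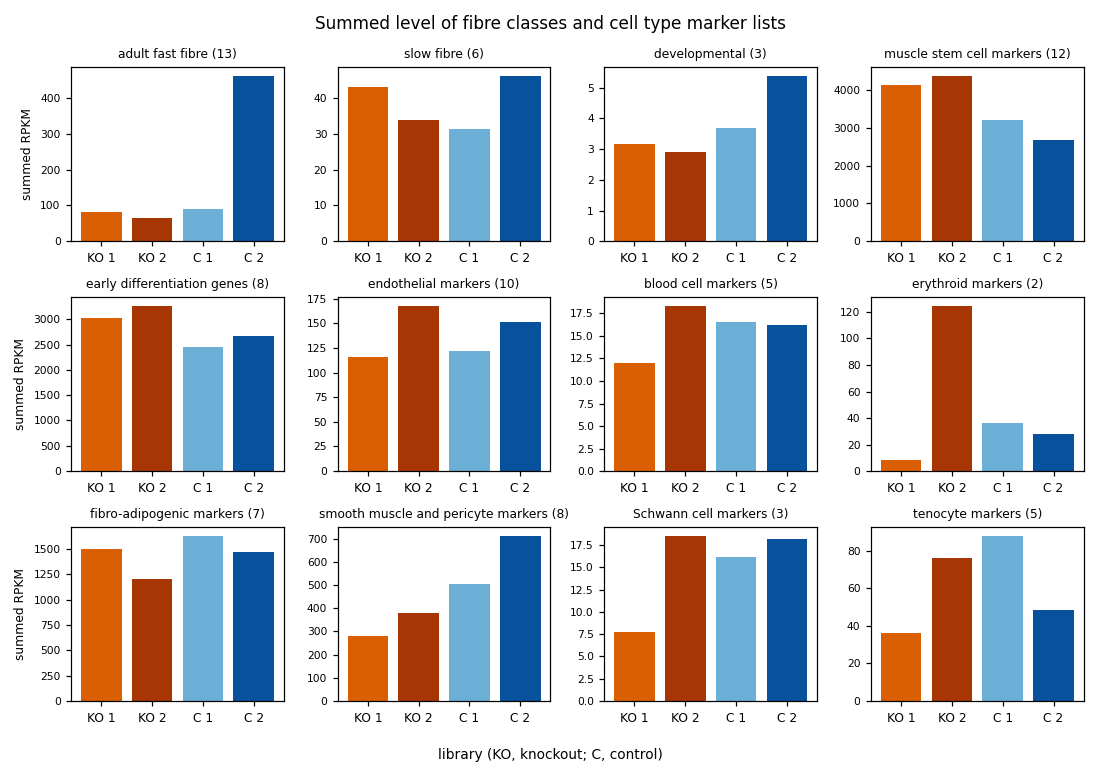
Summed RPKM over the listed genes of 3 fibre classes and 9 gene lists in each library, with the number of genes in brackets and a separate axis from 0 in each panel. Adult fast-fibre genes reach 462 RPKM in control 2, against 63.8 to 90.7 RPKM in the other 3 libraries, and no marker list of another cell type has that shape. Over all listed genes the sums were 516803 and 531029 RPKM in knockout, against 422746 and 390625 RPKM in control. All sums carry the authors' library scaling, which used a smaller share of the listed reads in knockout than in control.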

How the data were processed

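Muscle stem cells of 2 knockout and 2 control libraries were profiled by RNA sequencing, from 10 ng of RNA with a full-length low-input kit, per the labels. The authors deposited 1 table for the series. The submitters' processing notes name Trim Galore, STAR, Subread with featureCounts, edgeR and the build mm10 (GRCm38). Versions, and the filter behind the listed genes, are not given. The unit of the deposited library columns is not stated. They behaved as RPKM set by the authors, since RPKM times exon length gave whole reads for 100% of values in every library, within 0.01 reads. Ct columns were matched to controls and Fl columns to knockouts. The labels do not spell out Fl. The exon length is deposited as other information per gene. The authors also deposited a q-value per gene, and its model is not given.

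limma 3.58.1 with a mean-variance trend was run in R 4.3.3 on log2(RPKM + 0.5) over all 11603 genes, with genotype as the only term, Benjamini-Hochberg adjustment and a threshold of 0.05. It was also run on simulated counts in which no library deviated, so that run does not speak to genes where a control stands apart. Members and lists were chosen with earlier results of these data known. All measured members are described, and of other lists the genes past the threshold, else the 2 with the highest mean. Other genes were chosen after their values were seen. Alternatives were other pseudocounts, a filter, 2 rescalings, limma-voom on recovered reads, the replicate block and leaving out each library.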

Additional observations from a re-analysis of the deposited data

How the results depend on the processing

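Of the 31 members, 23 kept the sign of their log2 fold change in every alternative that gave them a value. These were 11 alternatives, or 10 for the 8 members that a minimum mean of 1 RPKM removes. The sign changed for 8 members. Leaving out 1 library at a time gave ranges of -1.68 to 0.26 for Eno3, -1.27 to 0.25 for Casq1, -1.36 to 0.062 for Tpm2, -1.11 to 0.062 for Tpm1, -1.23 to 0.28 for Casq2, -0.16 to 0.0017 for Myl4, -0.10 to 0.19 for Ryr1 and -0.23 to 0.56 for Mybpc1. Scaling by the reads listed gave -0.11 for Ryr1 and -0.060 for Mybpc1. The developmental median of -0.84 became -1.88 with a pseudocount of 0.1 and -2.72 with limma-voom. It became -0.081 among genes with a mean of at least 1 RPKM, where Myl4 is the single member left. Leaving out 1 library gave medians of -0.97 to 0.062 for shared genes and -0.85 to -0.22 for slow-fibre genes.

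limma called 1 gene of the table, Col1a1, and 0 to 1 without 1 library. limma-voom called 11 genes, 5 of them on the other lists and 0 members. On the other lists limma called 1 gene, and 0 without any 1 library. With the replicate number as a block the same limma fit called 1004 of the 11603 genes, 8 of the 31 members and 28 genes of the other lists. The 8 members were Myl1, Myh3, Tnnt2, Ttn, Mb, Tnni1 and Myh1, which were lower, and Tpm3, which was higher. The difference of knockout 1 from knockout 2 correlated across genes with that of control 1 from control 2 at 0.394, but the labels do not say that a number marks a shared litter, batch or day, so the number was not used as a pair. The cause of these changes was not tested. The planned count test of edgeR was not run, and limma-voom was the only fit on the recovered reads. With 2 libraries a group, a gene that was not called may still differ.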
